A study of Homo sapiens with 6 samples.

Results

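The genes described here are 30 genes of the p53 pathway, namely inhibitors of the p53 protein, genes that p53 activates and TP73, a relative of the p53 gene. They were taken by symbol, and 28 of the 30 were measured among 18132 genes in all, each through its brightest probe set with a single gene symbol. The 2 others, BTG2 and FDXR, were not analysed here. The study used A375, an established melanoma cell line of human origin, and hybridised its RNA to 6 Affymetrix expression arrays. The 3 knockdown arrays held cells that stably express an shRNA (short hairpin RNA) to MAP4K5, a Ste20-like kinase, and 3 control arrays held A375 cells without it. All 6 cultures were grown in serum-supplemented DMEM without treatment. The labels call the arrays of a group biological replicates without saying how the cultures were separated, so p-values reflect array spread that may be technical. The labels name neither a vector in the control cells nor the number of hairpins or clones, and off-target or selection effects cannot be told apart from the knockdown itself.

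The p53 protein is a transcription factor that is stabilised by DNA damage and other stresses. It binds a pair of decamers in the DNA of its target genes and activates genes of cell cycle arrest, apoptosis, DNA repair and metabolism. MDM2, itself a p53 target, marks p53 for degradation, and its paralog MDM4 holds p53 inactive by covering its activation domain. In melanoma the pathway is often restrained through these inhibitors.

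Levels are intensities on a linear scale, and a level of one probe set is not compared with that of another. The targeted gene, MAP4K5, stood at 19.6 ± 0.74 in knockdown cells and 77.4 ± 0.95 in control cells (SD, n = 3 each), with a log2 fold change of -1.98 ± 0.08 (SE). Control replicate 2 stood apart: over all genes it correlated with controls 1 and 3 at 0.992, while these correlated with each other at 0.997 and the knockdown arrays correlated with control 2 at 0.993 to 0.994. The calls of p53 pathway genes and of the further lists are therefore given with and without it below. Counts by role, by probe set and for cell type markers used all 6 arrays alone. Of the melanocyte lineage markers, 7 of 8 were measured and 3 passed the test. In knockdown cells MITF was higher (log2 fold change 0.99), and SOX10 and S100B were lower (-0.54 and -1.31). The summed level of the 7 was 176 to 186 in knockdown and 167 to 186 in control arrays. These opposite changes enter that sum together, so similar sums do not show unchanged markers. The pigment genes PMEL, MLANA and TYR lay between 2.42 and 3.90 in all arrays, below the median gene at 8.68. Of the markers of other cell types, 0 of 6 fibroblast, 0 of 3 leukocyte and 0 of 3 endothelial genes passed, and 1 of 4 epithelial genes, KRT14, was higher in knockdown cells. Of the fibroblast, leukocyte and endothelial genes 0 lay above the median gene. Dim genes pass less often, so these counts do not show unchanged markers. At an unadjusted limma p under 0.05 the counts were 2, 1 and 0 for fibroblast, leukocyte and endothelial genes, against 4256 of all 18132 genes. Their summed levels in knockdown and control arrays were 22.03 to 23.5 and 24.9 to 25.02 for fibroblast, 7.54 to 7.77 and 7.005 to 7.63 for leukocyte, 13.9 to 16.6 and 12.4 to 13.6 for endothelial, and 21.9 to 23.4 and 14.5 to 16.7 for epithelial genes. The epithelial sum moved mostly through KRT14, with means of 12.8 and 6.12 in its only probe set, a less specific _x_at set. EPCAM, CDH1 and KRT5 did not pass, at log2 values of -0.09, -0.02 and 0.29. The part of these markers in the p53 results was not tested, and in RNA of whole cultures fewer cells expressing a gene cannot be told apart from less RNA per cell.

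In knockdown cells 7 of the 28 p53 pathway genes passed the test, 5 upwards and 2 downwards, and 21 did not pass. CDKN1A, SESN1, TP53INP1, AEN and PERP, which are all p53 targets, were higher by 1.41-fold to 1.66-fold. MDM4, an inhibitor of p53, was 1.61-fold lower, and the p53 target CCNG1 was 1.41-fold lower. MDM2 did not pass in either direction. The test was limma's moderated test on log2 intensity, adjusted by the Benjamini-Hochberg method over all 18132 genes, with a threshold of 0.05.

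The 7 calls make 25% of the measured genes, against 7.83% of all genes (3.70% upwards and 4.13% downwards). Dim genes pass less often on this array, and 23 of the 28 lay above the median gene. With the lower 50% of genes left out, 7 of 23 passed, against 18.0% of the 9066 genes left. The calls numbered 11 with array weights, against 17.1% of all genes, 8 with the replicate number as a block, against 6.55%, and 7 when the less specific _x_at and _s_at probe sets were dropped, against 6.48% of 16701 genes. The median log2 fold change was 0.09, against 0.01 over all genes, and the median absolute log2 fold change was 0.26, against 0.12. The groups of 3 arrays did not overlap in 13 of the 28 genes, 46.4%, against 28.1% of all genes. These shares describe a list that was chosen with results of these data known.

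**Figure D1:**
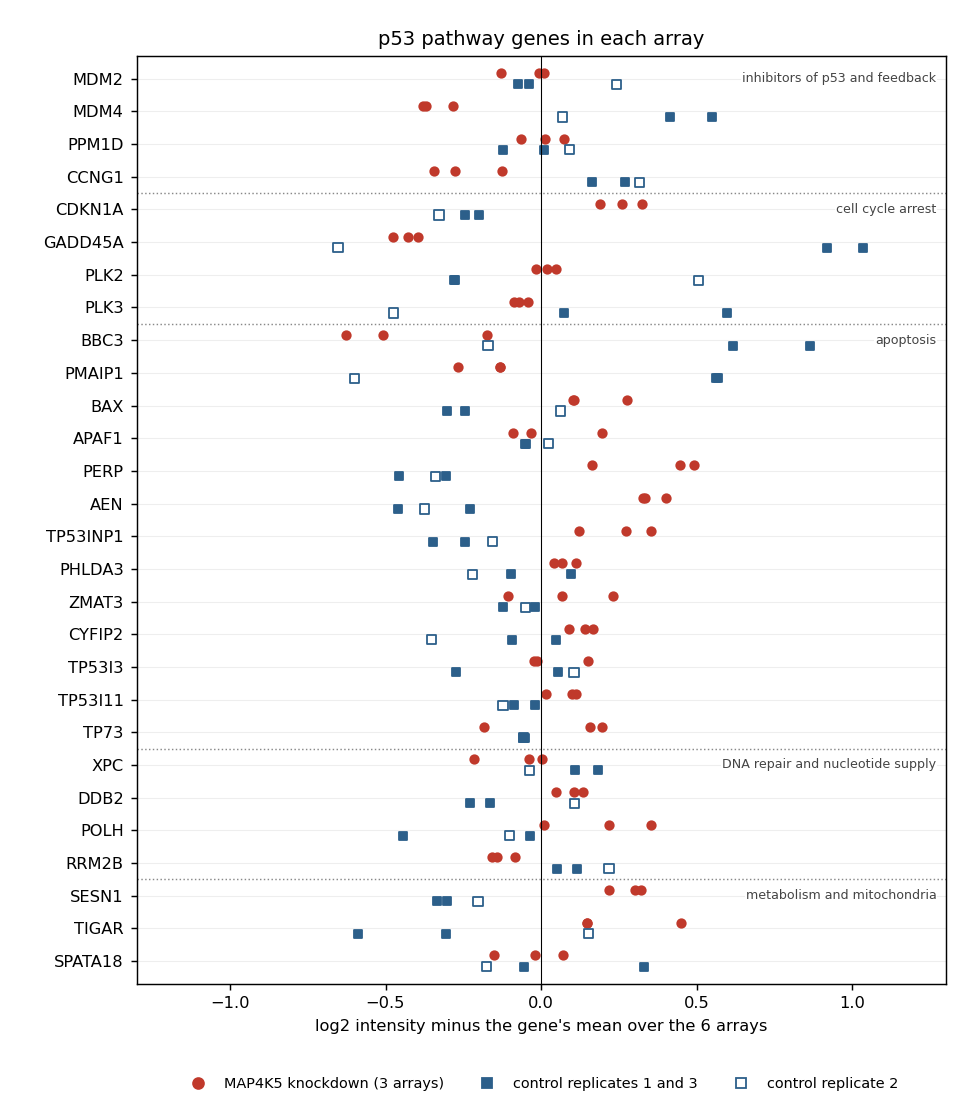
Log2 intensity of each of the 28 measured p53 pathway genes in each array, minus the gene's mean over the 6 arrays, grouped by role (circles, 3 knockdown arrays; filled squares, control replicates 1 and 3; open square, control replicate 2). All 3 knockdown arrays lie right of all controls for CDKN1A, PERP, AEN, TP53INP1 and SESN1 and left of them for MDM4 and CCNG1, while for GADD45A, PMAIP1 and PLK2 control replicate 2 lies on the far side of the knockdown arrays from controls 1 and 3.

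The paired decamers that p53 recognises were looked for around the starts of these genes, to show which members carry one close to a start. RefSeq windows on GRCh38.p14, from 250 bases before to 50 after a start, were held for 26 of the 30 genes, in 40 windows, some of which overlap. A decamer matching the p53 consensus stood in 5 of the 40 windows (12.5%), against 6.63% of 35116 windows of all genes. The full element, a pair of matching decamers with a spacer of 0 to 13 bases, stood in 1 of the 40 windows (2.5%), against 0.028% of all windows. A looser form kept the 4 central bases of both decamers (CATG or CAAG or CTAG or CTTG) and let up to 2 of the other 12 bases depart from the consensus. It stood in 2 of the 40 windows (5.0%), against 1.458% of all. The consensus and these central bases read the same on both strands, so both were searched. A match is a description of these letters and no evidence of binding, and many known p53 elements lie outside such windows.

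The full element lay in DDB2, at bases 6 to 26 after an internal start, and the looser form in AEN, 34 to 15 bases before its start. Single decamers lay 49 to 40 bases before an internal start of SESN1 and 132 to 123 bases before the start of PLK2. The fifth window with a decamer belongs to FDXR, which was not analysed here. The element is in capitals in each sequence below, which reads 5′ to 3′ along the gene.
DDB2, chr11:47214979-47214999, plus strand: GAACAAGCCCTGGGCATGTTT
AEN, chr15:88621291-88621339, plus strand: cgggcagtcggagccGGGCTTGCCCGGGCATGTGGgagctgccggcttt
SESN1, chr6:109009013-109009052, minus strand: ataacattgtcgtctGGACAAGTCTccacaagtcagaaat
PLK2, chr5:58460194-58460233, minus strand: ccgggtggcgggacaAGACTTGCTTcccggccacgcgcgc

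Of the 7 genes that passed the test, AEN and SESN1 are shown above, and TP53INP1 was not searched. The windows of CDKN1A, PERP, MDM4 and CCNG1 held no matching decamer. Their 100 bases before the first listed start follow, with the central 4 bases in capitals wherever they occur. At least 1 such run stood in this stretch in 66.22% of all windows, so its presence sets no gene apart.
CDKN1A, chr6:36678614-36678713, plus strand: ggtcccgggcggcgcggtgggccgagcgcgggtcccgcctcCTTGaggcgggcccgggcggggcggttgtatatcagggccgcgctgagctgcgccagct
PERP, chr6:138107420-138107519, minus strand: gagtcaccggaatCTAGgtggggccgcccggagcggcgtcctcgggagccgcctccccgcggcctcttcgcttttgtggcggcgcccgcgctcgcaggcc
MDM4, chr1:204516306-204516405, plus strand: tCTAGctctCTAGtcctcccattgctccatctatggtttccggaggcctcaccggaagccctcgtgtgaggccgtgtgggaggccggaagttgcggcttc
CCNG1, chr5:163437471-163437570, plus strand: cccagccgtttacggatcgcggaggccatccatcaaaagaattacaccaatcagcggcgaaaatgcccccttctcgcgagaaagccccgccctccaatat

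Among the inhibitors of p53 and its feedback genes, 2 of 4 were lower in knockdown cells and 0 were higher. Over all genes 4.13% were lower and 3.70% were higher. The counts by role, here and below, come from 3 to 13 measured genes each, too few to set a role apart from these shares. MDM4, the paralog of MDM2 that blocks the activation domain of p53, measured 54.3, 58.0 and 54.7 in knockdown arrays, against 94.2, 74.1 and 103 in control arrays. All 3 knockdown arrays lay below all controls, and control replicate 2 was the nearest of these. The fitted log2 fold change was -0.69 ± 0.12 (SE; limma adjusted p = 0.0168), and -0.83 ± 0.08 without control replicate 2 (adjusted p = 0.000521). All 6 MDM4 probe sets were lower in knockdown cells, by log2 values of -0.72 to -0.21, and 2 of them passed in a test per probe set, in which 4.48% of 44988 probe sets passed. The MDM4 call is thin: among fits that left out 1 array it held only without control replicate 2, and the adjusted p was 0.0538 to 0.0874 in the 5 others.

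CCNG1 encodes cyclin G1, which recruits a phosphatase to MDM2. It measured 266, 296 and 254 in knockdown arrays, against 389.5, 402 and 361 in control arrays. The groups did not overlap, and control replicate 2 was the highest array. On the log2 scale the difference was -0.50 ± 0.09 (SE; limma adjusted p = 0.0176), and -0.47 ± 0.09 without control replicate 2 (adjusted p = 0.0106). All 5 CCNG1 probe sets were lower in knockdown cells (-0.78 to -0.50), and 3 passed. The call was lost without knockdown replicate 1 or 3 or control replicate 1, with log2 fold changes of -0.56 to -0.45 over the 6 fits.

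MDM2, the ubiquitin ligase of p53, measured 38.4, 35.3 and 38.9 in knockdown arrays, against 37.6, 45.6 and 36.7 in control arrays. The groups overlapped, and control replicate 2 was the highest array. Knockdown minus control came to a log2 value of -0.09, with a 95% interval of -0.33 to 0.16 (limma adjusted p = 0.694), and 0.01 without control replicate 2. None of the 11 MDM2 probe sets passed, with log2 fold changes of -0.09 to 0.18. PPM1D, the WIP1 phosphatase that dephosphorylates p53, measured 52.3 to 57.6 in knockdown arrays and 50.3 to 58.3 in control arrays (log2 0.01, interval -0.19 to 0.22) and passed in neither fit.

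The interval for MDM2 excludes a fall as large as the estimate for MDM4, but the difference between the genes was not tested.

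**Figure D2:**
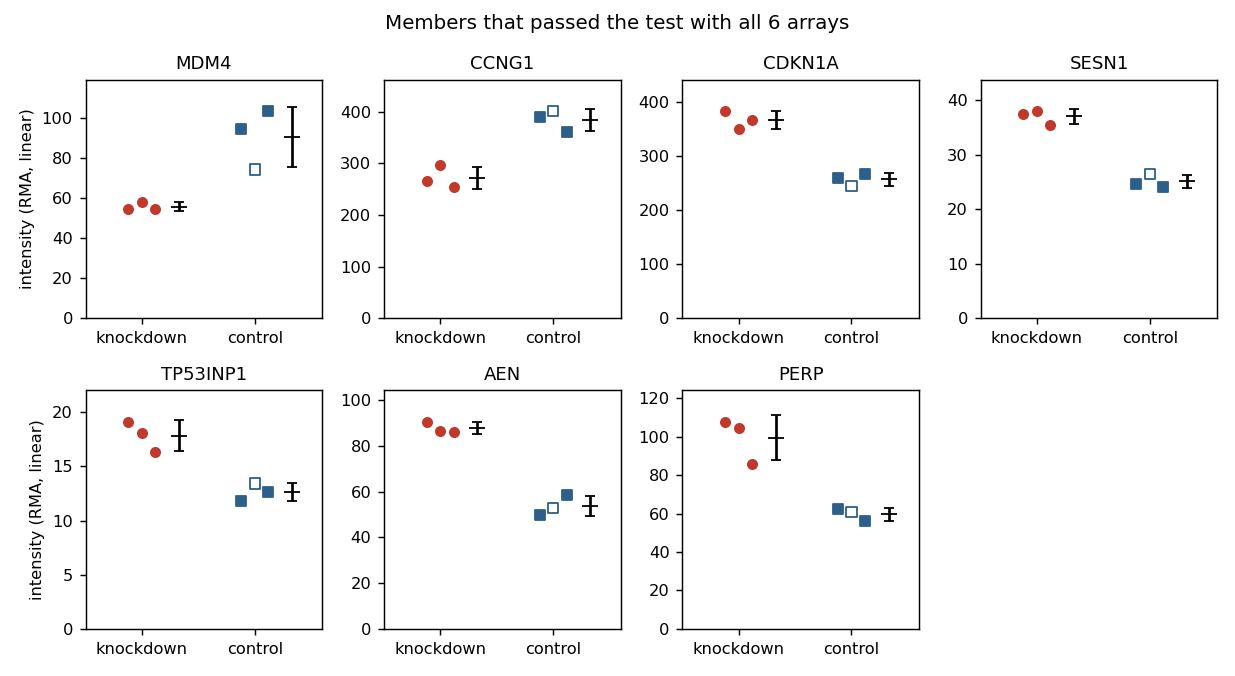
Intensity (RMA, linear axis from 0) of the 7 genes that passed the test, in 3 knockdown arrays (circles) and 3 control arrays (squares, control replicate 2 open), with mean ± SD beside the points. MDM4 and CCNG1 are lower in every knockdown array than in any control array, and CDKN1A, SESN1, TP53INP1, AEN and PERP are higher.

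Of the cell cycle arrest genes, 1 of 4 measured was higher in knockdown cells and 0 were lower, against 3.70% and 4.13% of all genes. CDKN1A encodes p21, the inhibitor of cyclin-dependent kinases through which p53 stops the cell cycle. It measured 383, 349 and 367 in knockdown arrays, against 259, 244 and 267 in control arrays. Every knockdown array lay above every control, and control replicate 2 was the lowest of all. In the fit this was a log2 fold change of 0.51 ± 0.08 (SE; limma adjusted p = 0.0104), and 0.48 ± 0.08 without control replicate 2 (adjusted p = 0.00502). Both CDKN1A probe sets passed. The call was lost narrowly without knockdown replicate 1 or 3 (adjusted p = 0.0661 and 0.0558).

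GADD45A, a stress sensor of the cell cycle that ATF4 can also induce without p53, measured 217, 223 and 211 in knockdown arrays, against 599, 186 and 553 in control arrays. The knockdown arrays were close together, controls 1 and 3 lay far above them, and control replicate 2 lay below them. The log2 fold change was -0.87 ± 0.38 (SE; adjusted p = 0.219), -1.41 ± 0.08 without control replicate 2 (adjusted p = 3.84e-05), and 0.22 against control replicate 2 alone.

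PLK2, a polo-like kinase induced by p53, showed the opposite split, with 362, 346 and 355 in knockdown arrays, against 289, 497 and 289 in control arrays. In this brightest probe set control replicate 2 was the highest array, and controls 1 and 3 were the lowest. The fitted log2 fold change was 0.03 ± 0.20 (SE; adjusted p = 0.945), and 0.29 ± 0.08 without control replicate 2 (adjusted p = 0.0292). PLK2 stood at -0.49 against control replicate 2 alone. The dimmer PLK2 probe sets stood at log2 values of -0.18 to -0.06 with all 6 arrays and did not pass. In them control replicate 2 was again the highest array, but control 1 lay among the knockdown arrays. PLK3, a related kinase, measured 6.78 to 6.99 in knockdown arrays and 5.18 to 10.9 in control arrays and passed in neither fit.

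Of the 13 apoptosis genes, 3 were higher in knockdown cells, 0 were lower and 10 did not pass. Over all genes 3.70% were higher and 4.13% were lower. AEN, a nuclease that takes part in DNA breakdown during apoptosis, measured 90.7, 86.5 and 86.1 in knockdown arrays, against 49.9, 52.9 and 58.6 in control arrays. The groups were well apart, and control replicate 2 lay between the other controls. On the log2 scale the difference was 0.71 ± 0.09 (SE; limma adjusted p = 0.00413), and 0.70 ± 0.09 without control replicate 2. AEN has 1 probe set and carries the looser p53 element shown above.

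PERP encodes a membrane protein of desmosomes that p53 induces during apoptosis. It measured 108, 105 and 86.0 in knockdown arrays, against 62.1, 60.6 and 56.0 in control arrays. The lowest knockdown array still lay above the highest control. Knockdown minus control came to a log2 value of 0.73 ± 0.11 (SE; limma adjusted p = 0.00719), and 0.75 ± 0.12 without control replicate 2. All 3 PERP probe sets were higher (0.73 to 0.83), and 2 passed. PERP and KRT14, an epithelial marker, were both higher in knockdown cells, and the part of cell state in the PERP level was not tested.

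TP53INP1, a stress protein that promotes p53 phosphorylation and autophagy, measured 19.1, 18.1 and 16.3 in knockdown arrays, against 11.8, 13.4 and 12.7 in control arrays. The groups did not overlap. In the fit this was a log2 fold change of 0.50 ± 0.09 (SE; limma adjusted p = 0.0202), and 0.55 ± 0.10 without control replicate 2. A dimmer second probe set stood at 0.00, and the call held in 2 of 6 fits that left out 1 array, those without control replicate 2 or knockdown replicate 3.

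The 3 members of the BCL2 family differed among themselves in estimate and in how control replicate 2 behaved. BBC3 encodes PUMA, a BH3-only protein that triggers cell death. It measured 24.3, 22.4 and 30.7 in knockdown arrays, against 52.96, 30.7 and 62.9 in control arrays. Control replicate 2 lay just above the highest knockdown array and far below the other controls. The log2 fold change was -0.87 ± 0.25 (SE; adjusted p = 0.0702), -1.18 ± 0.14 without control replicate 2 (adjusted p = 0.00121), and -0.27 against it alone.

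PMAIP1 encodes NOXA, a BH3-only protein that also answers to ATF4. It measured 221, 242 and 242 in knockdown arrays, against 394, 175 and 392.1 in control arrays. As for GADD45A, controls 1 and 3 lay above the knockdown arrays and control replicate 2 below them. For PMAIP1 the log2 fold change was -0.35 ± 0.28 (SE; adjusted p = 0.512), -0.74 ± 0.08 without control replicate 2 (adjusted p = 0.000773), and 0.42 against it alone.

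BAX, the effector that opens the outer mitochondrial membrane, measured 162, 144 and 144 in knockdown arrays, against 113, 139.9 and 109 in control arrays. Control replicate 2 lay just below the lowest knockdown array. On the log2 scale the difference was 0.32 ± 0.11 (SE; adjusted p = 0.133), and 0.43 ± 0.09 without control replicate 2 (adjusted p = 0.0112). The dimmer of the 2 BAX probe sets passed with all 6 arrays, at 0.70 (adjusted p = 0.0238 in the test per probe set).

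The other 7 apoptosis genes passed in neither fit, with log2 fold changes of 0.05 to 0.26. They are APAF1, the scaffold of the apoptosome, PHLDA3, an inhibitor of AKT, the RNA-binding protein gene ZMAT3, the actin regulator CYFIP2, the oxidoreductase gene TP53I3, TP53I11 and TP73. For CYFIP2 the groups did not overlap, with 15.9 to 16.8 in knockdown arrays and 11.7 to 15.5 in control arrays, and control replicate 2 was the lowest. They did not overlap for TP53I11 either. The knockdown and control arrays of APAF1 (3.53 to 4.31 and 3.63 to 3.82) and TP53I11 (3.36 to 3.60 and 3.06 to 3.29) lay below the median gene, where RMA compresses fold changes.

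Of the 4 genes of DNA repair and nucleotide supply, 0 passed limma's test with all 6 arrays, against 7.83% of all genes. An unadjusted limma p under 0.05 was seen for 2 of them, RRM2B and POLH, and for 4256 of all 18132 genes. DDB2, which detects ultraviolet damage and carries the full p53 element shown above, measured 73.5, 75.05 and 70.6 in knockdown arrays, against 58.4, 73.6 and 60.9 in control arrays. Control replicate 2 lay among the knockdown arrays and the other controls below them. Knockdown minus control came to a log2 value of 0.19 ± 0.10 (SE; adjusted p = 0.322), and 0.29 ± 0.08 without control replicate 2 (adjusted p = 0.0349).

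RRM2B, the ribonucleotide reductase subunit that p53 induces, lay between 66.7 and 70.2 in knockdown arrays and between 77.0 and 86.5 in control arrays. The groups did not overlap, but the log2 fold change of -0.26 ± 0.08 (SE) did not pass (adjusted p = 0.101). POLH, the translesion polymerase eta, lay at 5.40 to 6.85 in knockdown and 3.94 to 5.24 in control arrays (log2 0.39 ± 0.13, adjusted p = 0.123). XPC, a damage sensor of nucleotide excision repair, overlapped between the groups, at 39.4 to 45.9 in knockdown and 44.7 to 52.0 in control arrays. Without control replicate 2, RRM2B, POLH and XPC did not pass either (adjusted p = 0.103, 0.0749 and 0.132 in limma's test).

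Of the 3 measured genes of metabolism and mitochondria, 1 was higher in knockdown cells, against 3.70% of all genes. SESN1, a sestrin that restrains mTORC1, measured 37.5, 38.0 and 35.4 in knockdown arrays, against 24.7, 26.5 and 24.2 in control arrays. The groups did not overlap, and control replicate 2 was the highest control. In the fit this was a log2 fold change of 0.56 ± 0.08 (SE; limma adjusted p = 0.00712), and 0.60 ± 0.08 without control replicate 2 (adjusted p = 0.00163). The dimmer second SESN1 probe set stood at 0.07 and did not pass, and the mean of both probe sets, at 0.32, did not pass either (adjusted p = 0.0995).

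TIGAR, a phosphatase that lowers glycolytic flux, measured 53.8, 43.7 and 43.6 in knockdown arrays, against 26.2, 43.8 and 31.9 in control arrays. In this brightest probe set control replicate 2 lay among the knockdown arrays. The log2 fold change was 0.49 ± 0.18 (SE; adjusted p = 0.141), and 0.69 ± 0.13 without control replicate 2 (adjusted p = 0.00716). A dimmer TIGAR probe set measured 12.05, 11.11 and 10.59 in knockdown arrays, against 10.54, 9.43 and 11.99 in control arrays. There the groups overlapped, and control replicate 2 was the lowest array. That probe set stood at a log2 value of 0.08 and did not pass (adjusted p = 0.758 in the test per probe set). SPATA18, a gene of mitochondrial quality control, lay at 2.16 to 2.52 in knockdown arrays and 2.12 to 3.01 in control arrays.

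Without control replicate 2, 14 of the 28 genes passed, 9 upwards and 5 downwards. They are all 7 of the full fit and BAX, BBC3, DDB2, GADD45A, PLK2, PMAIP1 and TIGAR. The share was 50%, against 20.6% of all genes (10.5% upwards and 10.1% downwards). For each of the 7 added genes control replicate 2 lay nearer to the knockdown mean than to the mean of controls 1 and 3. The same held for 15 of the 28 genes, 53.6%, against 54.7% of all genes, which is a share near the background. Only AEN, PERP and SESN1 kept their calls in all 6 fits that left out 1 array, and the number of calls in those fits was 3, 5 and 4 without knockdown replicates 1, 2 and 3, and 4, 14 and 5 without control replicates 1, 2 and 3.

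**Figure D3:**
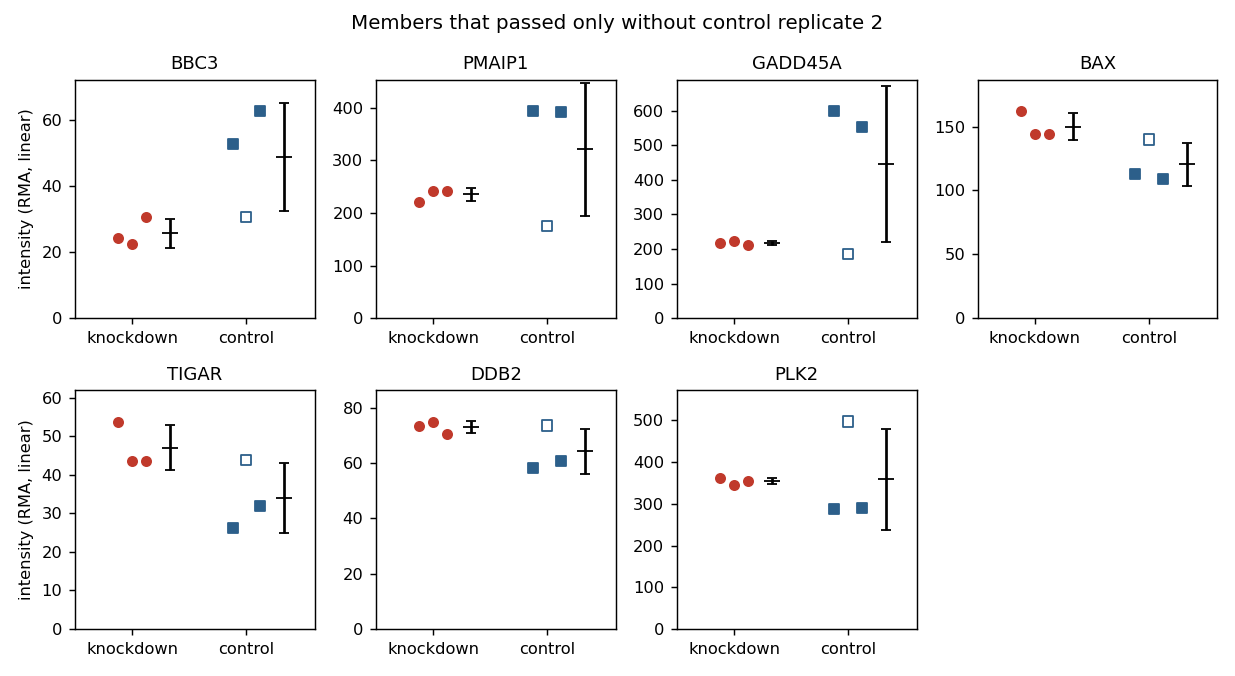
Intensity (RMA, linear axis from 0) of the 7 genes that passed only in the fit without control replicate 2, in 3 knockdown arrays (circles) and 3 control arrays (squares, control replicate 2 open), with mean ± SD beside the points. Control replicate 2 lies at the level of the knockdown arrays for BBC3, BAX, TIGAR and DDB2, and beyond it for PMAIP1, GADD45A and PLK2.

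**Figure D4:**
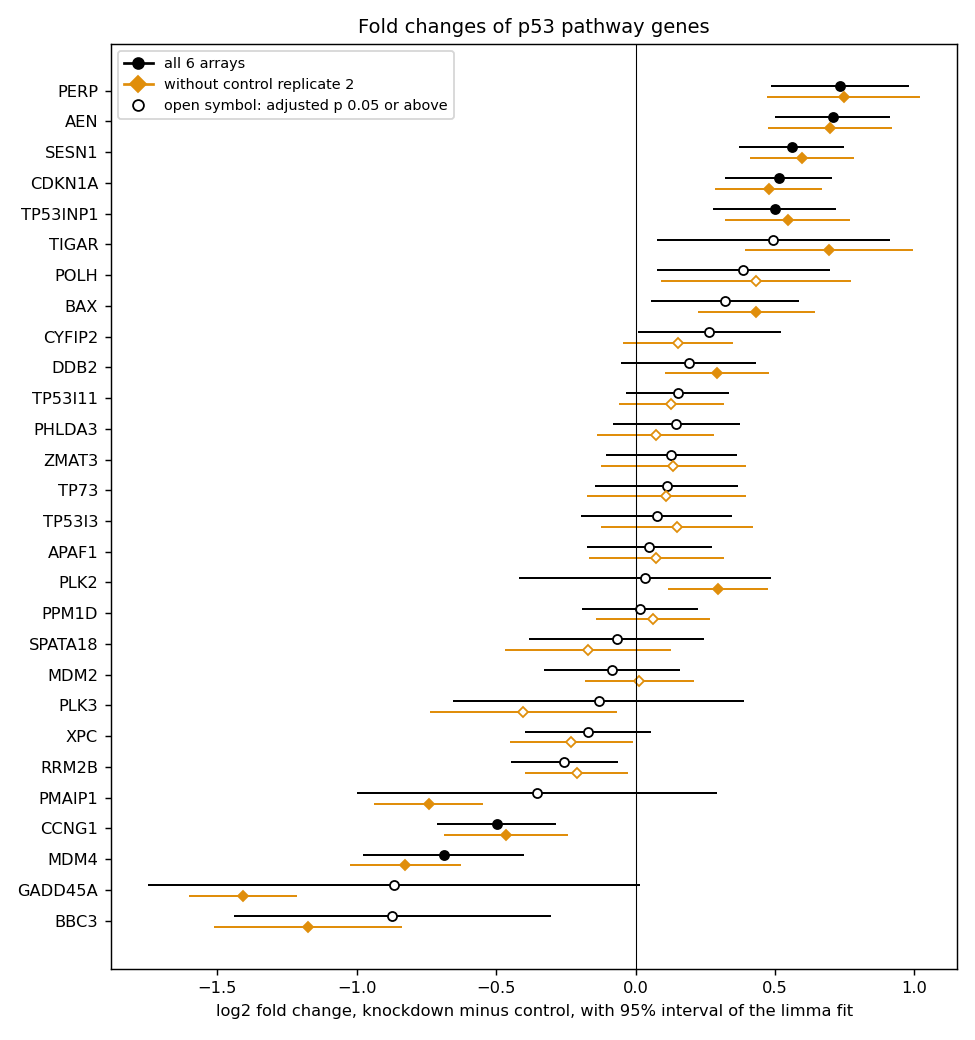
Log2 fold change, knockdown minus control, with the 95% interval of the limma fit, for the 28 measured p53 pathway genes with all 6 arrays (circles) and without control replicate 2 (diamonds). Filled symbols passed the test: 7 genes with all arrays and 14 without control replicate 2, with PERP at the top at 0.73 and BBC3 at the bottom at -0.87 with all arrays.

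Other genes of the pathway came from lists written from general knowledge. Of 14 regulators upstream of p53, 12 were measured, 1 was higher in knockdown cells and 11 did not pass. This share of 8.33% is near the 7.83% of all genes. All 12 lay above the median gene, however, and 18.0% of genes passed with the lower 50% left out. Without control replicate 2 the calls were 2 higher and 3 lower, 41.7% against 20.6% of all genes. ATR, a kinase of the replication stress checkpoint, measured 52.2, 52.3 and 51.4 in knockdown arrays, against 33.3, 42.2 and 31.3 in control arrays (log2 0.56 ± 0.12 SE, limma adjusted p = 0.0275). The groups did not overlap, and the ATR call held only without control replicate 2 (log2 0.69, adjusted p = 0.000825) among the fits that left out 1 array. The list median was 0.02, against 0.01 over all genes.

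Of 40 further direct p53 targets, 37 were measured, 6 were higher in knockdown cells, 1 was lower and 30 did not pass. The share called was 18.9%, against 7.83% of all genes, and the list median 0.05. Of the 37 genes 28 lay above the median gene, and 18.0% of genes passed with the lower 50% left out. The share of 18.9% is therefore not set apart from that of brighter genes. The calls without control replicate 2 were nearly balanced, with 9 higher and 8 lower, 45.9% against 20.6% of all genes. KITLG, the ligand of the receptor KIT, measured 23.9, 27.3 and 24.4 in knockdown arrays, against 9.62, 11.1 and 6.63 in control arrays (log2 1.497 ± 0.18 SE, limma adjusted p = 0.00322). The death receptor FAS measured 39.3, 44.6 and 34.7 in knockdown arrays, against 20.5, 22.03 and 18.3 in control arrays (log2 0.96 ± 0.12, adjusted p = 0.00365). In both genes all knockdown arrays lay above all controls, and both calls held in all 6 fits that left out 1 array. Both FAS probe sets passed, but only 1 of the 4 KITLG probe sets did. The log2 fold changes of KITLG and FAS without control replicate 2 were 1.66 and 1.02. TGFBR2, a TGF-beta receptor, rose by 0.82 ± 0.09 on the log2 scale (0.83 without control replicate 2), a call that held in all 6 such fits. Only 1 of the 2 TGFBR2 probe sets passed, and the other stood at 0.13. The lysosomal fucosidase FUCA1 was lower, at -0.35 ± 0.08, but this call held only without control replicate 2 among those fits, and none of its 3 probe sets passed in the test per probe set. The other 3 that rose, named after their values were seen, were IER5 (0.68), SFN, which encodes 14-3-3 sigma (0.75), and TRIAP1, an inhibitor of apoptosis (0.32). All 3 also passed without control replicate 2, at 0.76, 0.88 and 0.35. The IER5 call held in all 6 fits that left out 1 array, the SFN call in 2, and the TRIAP1 call only in the fit without control replicate 2. TRIAP1 did not pass in the test per probe set.

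Genes that p53 represses through CDKN1A and the DREAM complex were also examined. With all 6 arrays 0 of 15 passed limma's test, against 7.83% of all genes. All 15 lay above the median gene, and 18.0% of genes passed with the lower 50% left out. At an unadjusted limma p under 0.05 the count was 5 of 15, against 4256 of all 18132 genes. KIF23, a mitotic kinesin, had the smallest p (log2 0.70 ± 0.18, limma adjusted p = 0.0502), with 151, 163 and 146 in knockdown arrays, against 83.8, 129 and 77.4 in control arrays. Without control replicate 2 KIF23 stood at 0.93 (limma adjusted p = 0.000367). The list median was 0.25 with all arrays and 0.39 without control replicate 2, where 10 of 15 rose and 0 fell, against 10.5% of all genes upwards. In all 15 genes control replicate 2 lay nearer to the knockdown mean than to that of the other controls, against 54.7% of all genes. The median against control replicate 2 alone was -0.11. CDKN1A was higher in knockdown cells, and 0 of these 15 genes passed as lower in either fit. Over all genes 4.13% were lower with all arrays and 10.1% without control replicate 2. With 15 genes a count of 0 cannot be set apart from these shares, and a link to the CDKN1A level was not tested.

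**Figure D5:**
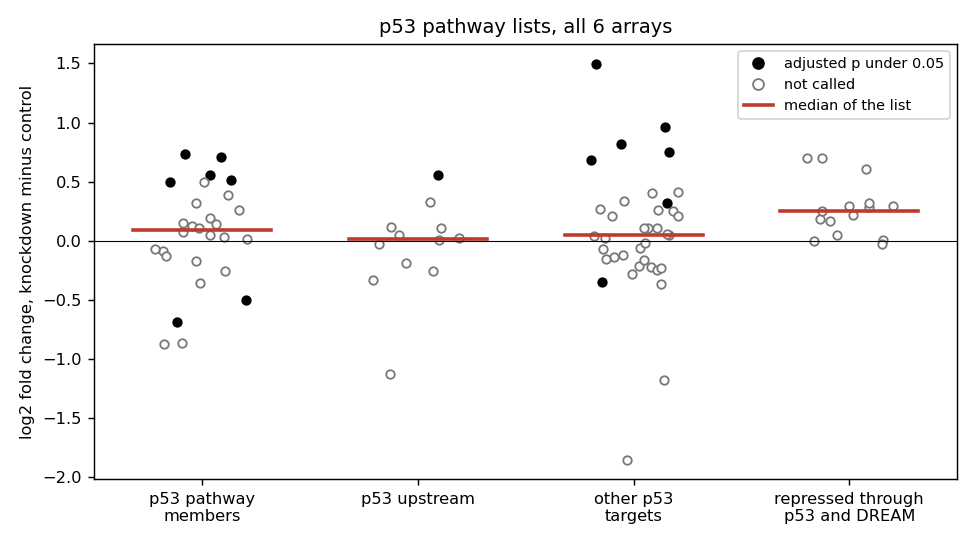
Log2 fold change, knockdown minus control, with all 6 arrays, for the 28 measured p53 pathway genes, 12 upstream regulators, 37 further p53 targets and 15 genes repressed through p53 and DREAM (each point a gene, horizontal offset random; filled points passed the test; bar, list median). Medians are 0.09, 0.02, 0.05 and 0.25, and calls number 7, 1, 7 and 0.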

How the data were processed

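The authors deposited 1 linear intensity per probe set and array, and the submitters' processing notes name RMA, without a version. RMA compresses fold changes of dim probe sets. The precision is limited by the number of arrays. Median intensities per array were 4.85 to 4.94. Log2 was taken without an offset. Of 49293 probe sets, 44988 had 1 gene symbol in the platform annotation, 1832 several and 2473 none. A gene was represented by its brightest probe set (mean log2 intensity of the 6 arrays). Knockdown was compared with control by limma 3.58.1 in R 4.3.3 (lmFit, eBayes without a trend), checked on simulated arrays. Windows and figures were handled in Python 3.11.15 with pandas 2.3.3 and matplotlib 3.10.9. Per-array values are given for all genes that passed in the full fit or without control replicate 2, and for MDM2. From the further lists up to 3 rises and 3 falls are given, or the smallest p. The genes and lists were chosen with earlier results of these data known. The looser p53 element was not in the planned design and was added when the windows were searched. Alternatives were a replicate block, an intensity trend, array weights, rescaling, an intensity offset of 16, filters on dim genes, other probe set rules and leaving out each array.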

Additional observations from a re-analysis of the deposited data

How the results depend on the processing

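The count of 7 called p53 genes (5 higher, 2 lower in knockdown) was the same 7 genes with an intensity trend, arrays shifted to 1 median, a second quantile step, the lowest 25% or 50% of genes left out, and probe sets ending in _x_at or _s_at left out. With array weights 11 passed, adding BAX and TIGAR as higher and BBC3 and GADD45A as lower in knockdown, so that 4 of the 11 (with MDM4 and CCNG1) were lower, and over all genes 3103 passed (1567 higher, 1536 lower) in place of 1420. An offset of 16 added RRM2B. Leaving out 1 array gave 3 to 14 calls, 3 to 9 higher and 0 to 5 lower, and over all genes 324 to 3732 (143 to 1902 higher, 181 to 1830 lower). Averaging all probe sets lost SESN1 and TP53INP1 and added BAX. With the replicate number as a block 8 passed, adding BBC3, and 1188 over all genes, but the numbers did not pair the arrays: deviations of same-numbered arrays correlated at -0.079, 0.022 and 0.06, and 2 of 6 arrays correlated best with their own number. Signs turned only in genes not called with all arrays: with probe sets averaged, MDM2 (0.072), PLK2 (-0.090) and SPATA18 (0.052), without _x_at and _s_at sets, PLK2 (-0.16) and ZMAT3 (-0.12), and with 1 array left out, MDM2 (-0.14 to 0.014), PLK2 (-0.10 to 0.29), PLK3 (-0.40 to 0.13), TP53I3 (-0.042 to 0.15), SPATA18 (-0.17 to 0.081), PPM1D (-0.043 to 0.064) and APAF1 (-0.036 to 0.11). Why these values moved was not tested.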

Other observations

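Among the further p53 targets that did not pass with all 6 arrays, some had control replicate 2 far below controls 1 and 3. It lay below the knockdown arrays in SESN2 and TNFRSF10B, as in GADD45A and the brighter PMAIP1 probe set, and above them in GDF15, as in BBC3. These further targets were named after their values were seen. GDF15, a stress cytokine, measured 28.1, 22.3 and 22.7 in knockdown arrays, against 138, 30.6 and 158 in control arrays (log2 -1.85 ± 0.53 SE, limma adjusted p = 0.0746). SESN2, a stress-induced sestrin and paralog of SESN1, measured 27.1, 26.2 and 26.1 in knockdown arrays, against 98.7, 21.8 and 99.6 in control arrays (adjusted p = 0.209). The death receptor gene TNFRSF10B measured 195, 201 and 211 in knockdown arrays, against 288, 149 and 307 in control arrays (adjusted p = 0.648). Without control replicate 2 the log2 fold changes of GDF15, SESN2 and TNFRSF10B were -2.61, -1.91 and -0.56, and all 3 passed as lower, and against control replicate 2 alone they were -0.34, 0.28 and 0.44. Of the upstream regulators, CDKN2A measured 12.8, 13.3 and 16.3 in knockdown arrays, against 39.0, 17.9 and 41.6 in control arrays (log2 -1.13 ± 0.29, limma adjusted p = 0.0518). Without control replicate 2 the log2 fold change of CDKN2A was -1.52 (adjusted p = 0.000144).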
